A study of Mus musculus with 2 samples.

Results

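Lysosomes are acid compartments in which macrophages break down what they have engulfed and their own worn-out parts. They do so with soluble hydrolases, each cutting 1 kind of bond, and with membrane proteins that carry products out or move ions. H3K36me3, trimethylation of a lysine on the tail of histone H3, is laid down along gene bodies mainly by the enzyme Setd2, which travels with elongating RNA polymerase, so that it lies over transcribed genes and usually away from their promoters.

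The genes described here are 34 named genes of lysosomal enzymes and membrane proteins, taken from a fixed list among 21924 protein-coding genes of GENCODE release M21 (GRCm38, the assembly of the mm10 files). They comprise 10 glycosidases, which remove sugars, 4 sulfatases, which remove sulfate, 8 lipid enzymes and lipid-binding proteins, 7 membrane proteins, and 5 other lumenal proteins. The assay was ChIP-seq, in which DNA bound by an antibody to H3K36me3 is sequenced, on unstimulated macrophages that had been grown from the bone marrow of C57BL/6J mice. The series has 1 group, with 2 biological replicates that the labels list as separate biosamples under 1 donor record, and the age and sex of the animals were not collected. There is no second condition, so each value is given per replicate and no test across samples was made.

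The labelled cell type was checked on marker genes, using the share of each gene body under peaks. Of 10 macrophage markers, all 10 reached 20% coverage in replicate 2 and 6 in replicate 1. Of 27 markers of T cells, B cells, neutrophils, fibroblasts and erythroid cells, 1 reached 20%, the neutrophil receptor gene Csf3r, with 22.8% in replicate 1 and 68.2% in replicate 2. Replicate 1 held 32098 peaks and replicate 2 held 58505. Because the files give peaks and not reads, sequencing depth is unknown, and a gene with no peak was not detected at that depth and is not shown to lack the mark.

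Sequences under the peaks of the 3 most covered genes (mean of the replicates) are shown first, as examples of covered sequence. They were chosen as internal coding exons, so their place in the gene is no result. Each is a window of 240 bases of GRCm38 (RefSeq), 5′ to 3′ in the direction of transcription, centred on an internal coding exon. Capitals mark the exon and lower case the flanking intron bases, and every base of each window lay under a peak in both replicates.
Gusb, chr5:129993386-129993625, minus strand: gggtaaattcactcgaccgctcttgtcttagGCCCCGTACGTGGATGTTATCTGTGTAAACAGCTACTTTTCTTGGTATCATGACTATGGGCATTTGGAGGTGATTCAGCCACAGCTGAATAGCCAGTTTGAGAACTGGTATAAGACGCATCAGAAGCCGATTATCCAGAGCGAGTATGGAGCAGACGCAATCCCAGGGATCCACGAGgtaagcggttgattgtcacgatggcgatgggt
Man2b1, chr8:85095651-85095890, plus strand: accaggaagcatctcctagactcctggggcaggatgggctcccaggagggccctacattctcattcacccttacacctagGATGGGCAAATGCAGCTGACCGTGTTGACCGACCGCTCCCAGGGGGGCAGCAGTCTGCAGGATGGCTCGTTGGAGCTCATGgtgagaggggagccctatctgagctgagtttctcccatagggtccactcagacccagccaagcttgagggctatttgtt
Psap, chr10:60294917-60295156, plus strand: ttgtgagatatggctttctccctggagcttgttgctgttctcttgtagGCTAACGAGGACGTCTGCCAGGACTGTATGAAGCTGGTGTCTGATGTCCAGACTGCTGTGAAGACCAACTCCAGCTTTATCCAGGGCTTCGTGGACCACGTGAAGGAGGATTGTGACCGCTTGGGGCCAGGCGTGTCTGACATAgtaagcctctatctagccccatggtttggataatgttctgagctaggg
The Gusb window holds exon 10 of 12, at 68.0% of the gene body counted from its start. The Man2b1 window holds exon 20 of 24, at 83.3% of the body. The Psap window holds exon 6 of 14, at 69.7% of the body. In replicate 2 these windows lay in peaks with authors' enrichment values of 5.73, 5.73 and 9.72, in the order shown. In replicate 1 the values were 3.66, 4.202 and 4.88. Enrichment is the authors' ratio over their background for each peak and is used only to describe peaks within a list.

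Most of these lysosomal genes carried H3K36me3 in these cells. A peak inside the gene was found in both replicates for 27 of the 34, in replicate 2 alone for 3, and in neither for 4. Of all coding genes 28.8% had a peak in both replicates and 61.4% had none in either. A gene is called marked here when at least 20% of its body, from annotated start to annotated end, lay under peaks in both replicates. By this rule 15 of the 34 genes were marked, 44.1%, where the rule took 7.62% of all coding genes. In replicate 1 alone 15 genes reached 20%, against a background of 7.64%, and in replicate 2 alone 30 genes did, against 23.3%. The median gene had 14.5% of its body under peaks in replicate 1 and 48.7% in replicate 2, while the median over all coding genes was 0 in each replicate. With only peaks of a −log10 q of at least 5, the medians were 2.87% in replicate 1 and 43.7% in replicate 2.

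Replicate 2 covered more of every gene that had a peak, 30 of 30. That count is not given for coding genes at large, but there too more genes reached 20% in replicate 2, 23.3% against 7.64%. Of the bases under replicate 1 peaks within these genes, 92.1% were also under replicate 2 peaks, and of the replicate 2 bases 37.0% were under replicate 1 peaks. The 15 genes that were not marked but reached 20% in replicate 2 therefore rest on that replicate. Coverage in replicate 1 against replicate 2 had Pearson's r at 0.61 and Spearman's rho at 0.55 across the 34 genes, which share libraries, as a description.

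**Figure D1:**
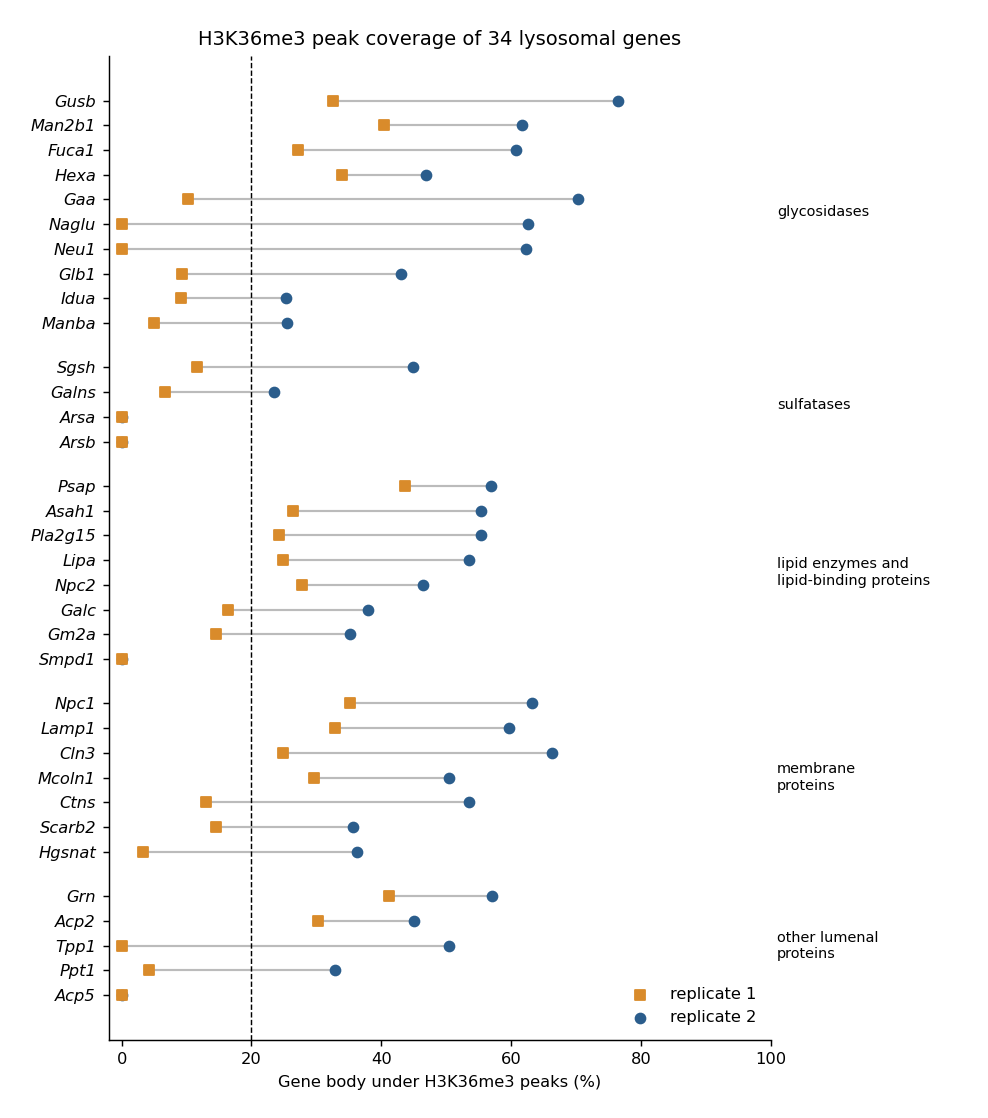
Percent of each gene body under H3K36me3 peaks (x axis) for the 34 genes, grouped by role, with replicate 1 as squares and replicate 2 as circles and a dashed line at 20%. Replicate 2 lies to the right for every gene with a peak, and 4 genes (Arsa, Arsb, Smpd1 and Acp5) sit at 0 in both.

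Among the glycosidases 4 of 10 were marked, and all 10 reached 20% in replicate 2. Their median coverage was 9.80% in replicate 1 and 61.3% in replicate 2. Gusb encodes beta-glucuronidase, which removes glucuronic acid from glycosaminoglycans. Its coverage was 32.6% in replicate 1 and 76.6% in replicate 2, and the value in replicate 2 was the highest of the 34 genes there. Man2b1, the lysosomal alpha-mannosidase, had 40.5% in replicate 1 and 61.7% in replicate 2. Hexa, the alpha subunit of beta-hexosaminidase that degrades GM2 ganglioside, had 33.9% and 47.0% in replicates 1 and 2. This was the smallest gap between the replicates among the 30 genes with a peak. Fuca1, which removes fucose, had 27.2% in replicate 1 and 60.8% in replicate 2.

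The other 6 glycosidases were below 20% in replicate 1. Gaa, the acid alpha-glucosidase that breaks down glycogen, had 10.3% in replicate 1 and 70.3% in replicate 2, one of the widest gaps between the replicates. Glb1, the beta-galactosidase, had 9.30% in replicate 1 and 43.1% in replicate 2. It shares 8.36% of its body with the coding gene Tmppe. Coverage there was 25.7% in replicate 1 and 54.2% in replicate 2, against 7.81% and 42.1% on its unshared bases. Manba, the beta-mannosidase, had 4.97% in replicate 1 and 25.5% in replicate 2. Naglu and Neu1 had no peak inside the gene in replicate 1 and high coverage in replicate 2. Naglu, which acts on heparan sulfate, had 62.6% in replicate 2. Neu1, the sialidase, had 62.3% in replicate 2, and its 1 kb past the gene end was 41.2% covered in replicate 1. Idua, the alpha-iduronidase, had 9.10% in replicate 1 and 25.3% in replicate 2. Of its body 62.1% is shared with the coding genes Dgkq and Slc26a1, and peaks there cannot be assigned to 1 of them.

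None of the 4 sulfatase genes was marked (0 of 4), and 2 of them had no peak in either replicate. Sgsh, the heparan sulfatase, had 11.6% of its body under peaks in replicate 1 and 44.8% in replicate 2. Galns, which acts on keratan sulfate and chondroitin sulfate, had 6.63% in replicate 1 and 23.5% in replicate 2, and its whole body is overlapped by another annotated coding gene, Gm20388. Both were below 20% in replicate 1 and above it in replicate 2. Arsa, the arylsulfatase that acts on sulfatide, and Arsb, which acts on dermatan sulfate, were at 0 in both. The nearest peak to Arsa was 100.5 kb away in replicate 1 and 44.7 kb in replicate 2, and the nearest to Arsb 249.0 kb and 234.6 kb. With 4 genes, the median coverage of 3.31% in replicate 1 and 11.8% in replicate 2 describes these genes only.

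In the lipid group 5 of 8 genes were marked, and 7 of 8 reached 20% in replicate 2. Psap encodes prosaposin, the precursor of the saposins, which present sphingolipids to their hydrolases. It had 43.6% of its body under peaks in replicate 1, the highest of the 34 genes there, and 56.9% in replicate 2. Its highest peaks also had the highest enrichment of the 34 genes in each list. In replicate 1 that peak lay on chromosome 10 at 60297691 to 60302405, with an enrichment of 6.64, rank 2 of 32098 peaks. In replicate 2 the peak ran over 11.4 kb, from 60291078 to 60302495, with an enrichment of 9.72, rank 13 of 58505. Both lay wholly within the gene and ended close to its 3′ end.

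The acid ceramidase gene Asah1 had 26.4% of its body under peaks in replicate 1 and 55.3% in replicate 2. Npc2, which binds cholesterol in the lumen, had 27.8% in replicate 1 and 46.5% in replicate 2. Lipa, the acid lipase that releases cholesterol from its esters, had 24.8% in replicate 1 and 53.5% in replicate 2. These and Pla2g15, a lysosomal phospholipase at 24.2% in replicate 1 and 55.3% in replicate 2, passed the limit with a margin of under 10 percentage points in replicate 1. Galc, which removes galactose from galactosylceramide, had 16.4% in replicate 1 and 38.0% in replicate 2. Gm2a, the activator that presents GM2 ganglioside to hexosaminidase, had 14.5% in replicate 1 and 35.2% in replicate 2. Smpd1, the acid sphingomyelinase, had no peak in either replicate, and the authors' pooled list held 1 peak over 8.41% of it.

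All 7 membrane protein genes had a peak in both replicates, and 4 of 7 were marked. Npc1, which receives cholesterol from Npc2 and passes it to the membrane, had 35.1% in replicate 1 and 63.3% in replicate 2. Lamp1, an abundant glycoprotein of the lysosomal membrane, had 32.8% in replicate 1 and 59.7% in replicate 2. It shares 20.5% of its body with Grtp1, and on the unshared bases its coverage was 23.3% in replicate 1 and 49.3% in replicate 2. Mcoln1, a cation channel that releases calcium from lysosomes, had 29.6% and 50.4% in replicates 1 and 2. Cln3, the gene of juvenile Batten disease, had 24.9% in replicate 1 and 66.4% in replicate 2.

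The remaining 3 membrane protein genes fell short in replicate 1. Scarb2, a receptor of the lysosomal membrane, had 14.5% in replicate 1 and 35.6% in replicate 2. Ctns, the cystine exporter, had 12.9% in replicate 1 and 53.5% in replicate 2. Hgsnat, which acetylates heparan sulfate across the membrane, had 3.23% in replicate 1 and 36.2% in replicate 2. Together with the marked ones, all 7 of these genes reached 20% in replicate 2.

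Of the 5 other lumenal genes, 2 were marked. Grn, which encodes progranulin, had 41.2% in replicate 1 and 57.1% in replicate 2. At 6.73 kb it was the only gene under 10 kb among the 34 that was marked. In replicate 1 its highest peak had an enrichment of 5.01, rank 94 of 32098. Acp2, an acid phosphatase, had 30.2% in replicate 1 and 45.1% in replicate 2. Of its body 22.5% is shared with Ddb2, where coverage was 52.4% in replicate 1 and 97.7% in replicate 2, against 23.7% and 29.8% on its unshared bases. Tpp1, a tripeptidyl peptidase, had no peak in replicate 1 and 50.4% in replicate 2. Ppt1, which removes palmitate from proteins, had 4.26% in replicate 1 and 32.9% in replicate 2. Acp5, the tartrate-resistant phosphatase known from osteoclasts, had no peak in either replicate, and the nearest lay 12.9 kb away in replicate 1 and 12.6 kb in replicate 2.

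The marked genes were mostly of middle length. Of the 21 lysosomal genes of 10 to 40 kb, 13 were marked, 61.9%, against 12.7% of all coding genes of that length. All 21 reached 20% in replicate 2, where 33.4% of coding genes of that length did. Of 7 genes under 10 kb 1 was marked, against 6.67% of coding genes of 4 to 10 kb, and of 6 genes over 40 kb 1 was marked, Npc1, against 4.96%. Of the 4 genes without a peak, Arsa, Smpd1 and Acp5 were under 10 kb, and Arsb is the longest of the 34 at 171.4 kb. Among genes with a peak, coverage was lower in longer genes, with length on a log scale and Pearson's r at -0.42 over 27 genes in replicate 1 and -0.48 over 30 in replicate 2. This leaves out the genes without a peak, most of them under 10 kb. With those included, median coverage under 10 kb, at 10 to 40 kb and over 40 kb was 0, 24.9% and 11.9% in replicate 1. In replicate 2 it was 50.4%, 53.5% and 36.8%, in the same order.

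**Figure D2:**
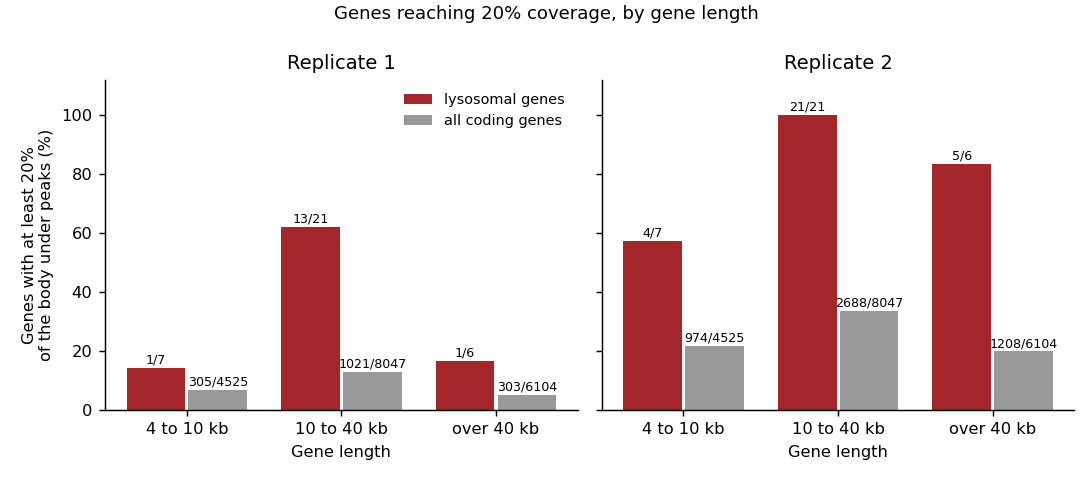
Percent of genes with at least 20% of the body under peaks (y axis), by gene length, for the lysosomal genes in red and all coding genes in grey, in each replicate. Numbers above bars are genes over genes in the class. The lysosomal bars are the taller ones in every class, reaching 21 of 21 for genes of 10 to 40 kb in replicate 2.

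Where along the gene did the mark lie? On a scale with the annotated start at 0 and the end at 100, the covered bases of the median lysosomal gene had a mean position of 66.3 in replicate 1 and 62.5 in replicate 2. Over all coding genes with a peak the medians were 67.9 and 66.3, close to those of the lysosomal genes, so the lean to the 3′ side was shared with coding genes at large. The last 25% of the body was covered more than the first 25% in both replicates in 21 of 27 genes with a peak in both, against 72.6% of such coding genes. The first peak began at a median of 7.81 kb from the start in replicate 1 and 3.97 kb in replicate 2. Over all coding genes with a peak the medians were 9.99 kb and 6.40 kb, so there too it was lower in replicate 2. Among the 27 lysosomal genes with a peak in both, the first peak was nearer the start in replicate 2 in 25. That count is not given for coding genes at large.

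Averaged over the 27 genes with a peak in both replicates, coverage was lowest in bin 1 of 10 equal bins along the body, at 0.89% in replicate 1 and 2.51% in replicate 2. It was highest in bin 9 in replicate 1, at 49.6%, and in bin 8 in replicate 2, at 71.9%. In the other 6181 coding genes of at least 4 kb with a peak in both, the highest mean was in bin 9, at 23.2% in replicate 1 and 53.2% in replicate 2. In both sets bin 1 was nearly bare, and the lysosomal genes stood above the others from bin 5 to bin 10 in each replicate. The 1 kb before the start held no peak base in any of the 34 genes in replicate 1 (0 genes) and in 1 gene, Cln3, in replicate 2.

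**Figure D3:**
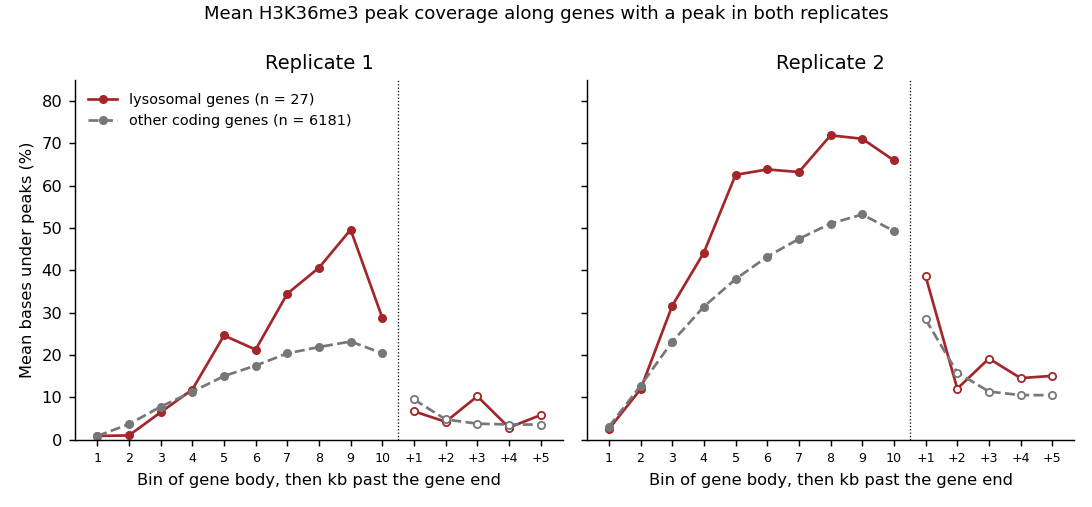
Mean percent of bases under peaks (y axis) in 10 equal bins of the gene body and in the 5 kb past the gene end (open symbols), for 27 lysosomal genes (red, solid) and 6181 other coding genes (grey, dashed) with a peak in both replicates. Both curves climb toward the 3′ part, and the lysosomal mean reaches 49.6% in replicate 1 and 71.9% in replicate 2.

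Individual genes followed this shape closely or departed from it. The first 25% of the body held no covered base in 22 of 27 genes with a peak in replicate 1 and in 13 of 30 in replicate 2. This count was not made over coding genes at large. In the mean profiles, bin 2 was at 1.00% in replicate 1 and 11.9% in replicate 2. It was also low in the other 6181 coding genes, at 3.66% and 12.7%. Lamp1 and Psap had no covered base in the first 25% of the body in either replicate. In replicate 2 the last 25% was covered over 100% of its length in Lamp1 and 98.4% in Psap. Hexa had the same form, with 91.9% of its last 25% covered in replicate 1 and 100% in replicate 2. Glb1 had the opposite form in replicate 1. There, the first 25% of its body was covered over 19.7% and the last 25% over 11.5%, with a mean position of 37.9. Bases that Glb1 shares with Tmppe were not left out of these values. In replicate 2 the strongest Glb1 peak, at chromosome 9, 114424959 to 114426256, had no exonic base, lay at 33.2% of the body and had an enrichment of 7.12, rank 170 of 58505. Galns and Tpp1 were covered in the middle and had nothing in the last 25% of the body in replicate 2 (0% each). Tpp1 had a mean position of 48.9 there and Galns 38.0.

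The top peak of a gene could differ between the lists. The top Scarb2 peak was at 84.3% of the body in replicate 1, with an enrichment of 4.47, and at 36.6% in replicate 2, with 6.95. Each list held peaks at both places. The other peak was at 36.9% in replicate 1, with 3.80, and at 84.4% in replicate 2, with 5.38. The mean position of all its covered bases was 71.6 in replicate 1 and 71.1 in replicate 2. In replicate 2 the top peak thus lay well before that mean position. Across the 27 genes with a peak in both, the mean position was lower in replicate 2 in 20. Over all coding genes with a peak the median position was also lower in replicate 2, at 66.3 against 67.9 in replicate 1.

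**Figure D4:**
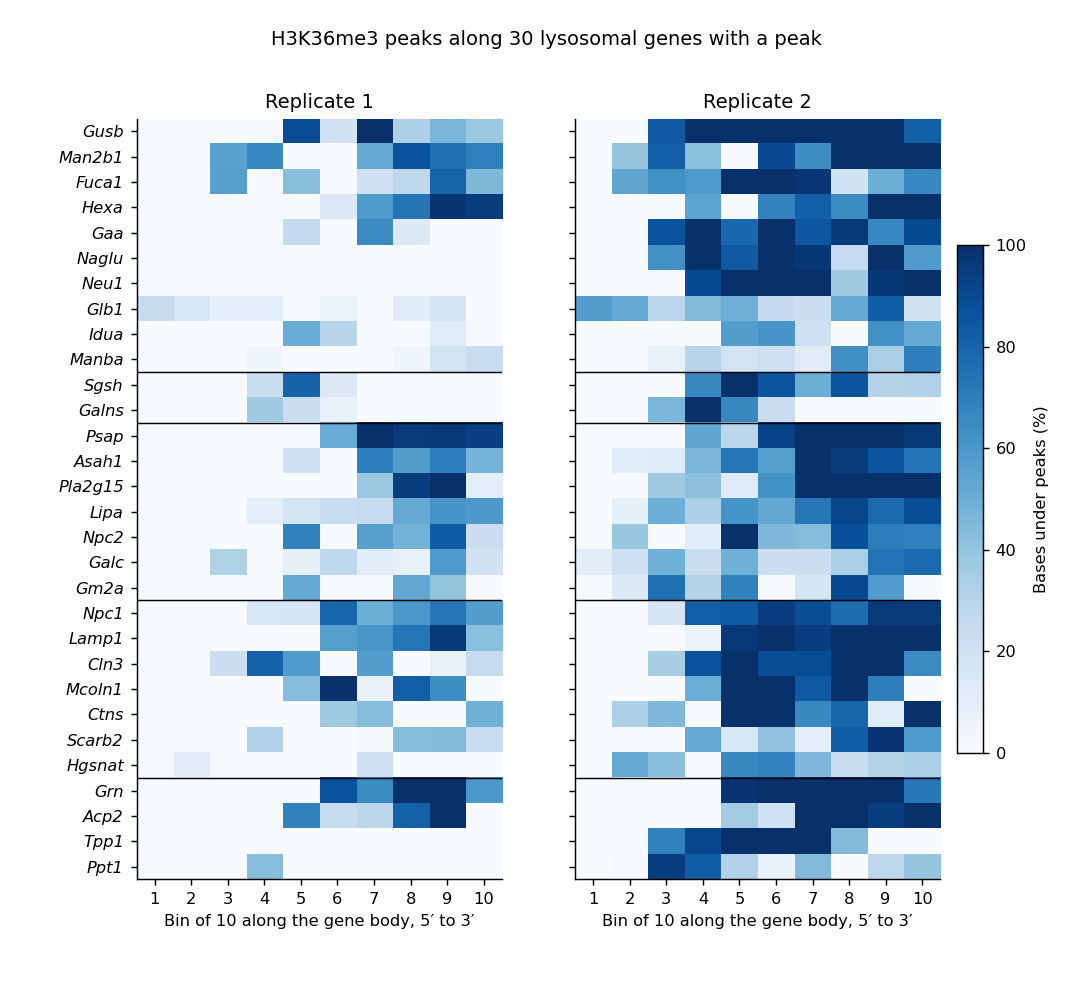
Percent of bases under peaks (shade) in each of 10 equal bins of the gene body, 5′ to 3′, for the 30 lysosomal genes with a peak, in the order and groups of the plot of coverage by gene, with lines between groups. The right-hand columns are the darkest for genes such as Psap, Lamp1, Hexa and Grn, while Glb1 has colour from bin 1 and Galns only in the middle.

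The first intron was mostly bare. It had no covered base in 25 of 27 genes with a peak in replicate 1 and in 18 of 30 in replicate 2. Over coding genes with a peak and more than 1 intron, the shares were 91.2% and 77.7%. The first intron was covered less than the other introns together in 26 of 27 lysosomal genes in replicate 1 and in 28 of 30 in replicate 2, beside 92.5% and 93.1% of coding genes. The other introns had a median coverage of 24.8% in replicate 1 and 64.3% in replicate 2. No gene of the 34 had its first covered base in the first exon in either replicate (0 genes). In the replicates' lists the exception was Glb1, with 18.8% of its first intron covered in replicate 1 and 51.2% in replicate 2, against 6.37% and 39.6% of its other introns. Glb1 shares 8.36% of its body with Tmppe, and peaks there cannot be assigned to 1 of them. Ppt1 was the other exception in replicate 2, with 40.2% of the first intron and 27.3% of the others.

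**Figure D5:**
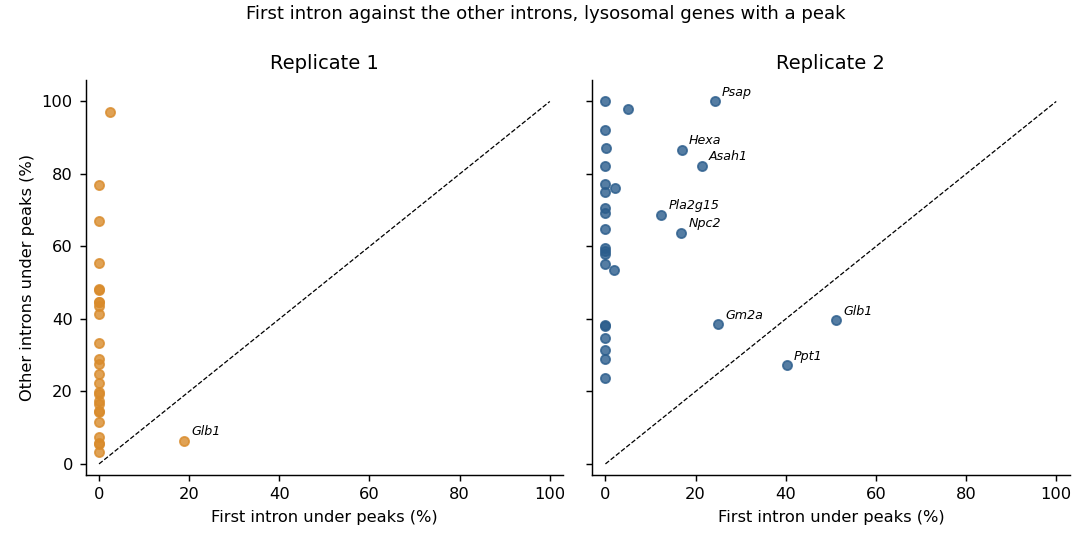
Percent of the first intron under peaks (x axis) against percent of all other introns (y axis) for the 27 lysosomal genes with a peak in replicate 1 and the 30 in replicate 2, one point per gene, with the line of equality dashed. Points crowd the left edge, and Glb1 in both replicates and Ppt1 in replicate 2 lie below the line.

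Whether exons or introns were covered more varied between genes. Without matching, exons had the higher coverage in both replicates in 16 of 27 genes, against 61.3% of coding genes with a peak in both. With exon and intron bases compared within the 10 bins of the body, 13 of 27 did, against 40.7%. The median difference, exon minus intron, was 5.60 percentage points in replicate 1 and 0.59 in replicate 2, while coding genes at large had 1.91 and 2.59. Man2b1 had more intron than exon coverage in both replicates, and Manba the reverse. In Man2b1 exons were covered over 50.8% and introns over 74.3% in replicate 2, and in Manba exons over 70.8% and introns over 21.5%.

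Past the gene end the replicates differed. Of the 27 genes with a peak in both replicates, 6 had peak bases in the first 1 kb beyond the annotated end in both, against 17.8% of such coding genes. Counting all 34 genes there were 7, since Neu1 had such bases without a peak inside the gene in replicate 1. In replicate 1 the first 1 kb was touched in 8 of 34 genes. In replicate 2 it was touched in 16, all among the 30 genes with a peak there, against 41.2% of coding genes with a peak. Mean coverage of that 1 kb over the 27 genes with a peak in both was 6.70% in replicate 1 and 38.6% in replicate 2, against 9.49% and 28.4% in the other 6181 coding genes. In replicate 2 it was wholly covered past Fuca1, Neu1, Galc, Lamp1 and Acp2, whereas past Grn it held no peak base. Lamp1 and Acp2 share part of their bodies with Grtp1 and Ddb2, in that order. Bases of other coding genes were not left out of the 1 kb, so peaks there cannot all be assigned to the lysosomal gene.

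The peaks themselves had enrichments close to those of all peaks. In replicate 1, 142 peaks touched the 34 genes, with a median enrichment of 3.34, against 3.22 over all peaks. In replicate 2, 218 peaks did, with a median of 3.99, against 3.83. Their median length was 826.5 bp in replicate 1 and 1180.5 bp in replicate 2, against 743 bp and 987 bp over all peaks. The high ranks of Psap and Grn in replicate 1 belonged to single genes.

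Many lysosomal genes carry an element in their promoters, built on the E-box CACGTG and in longer form TCACGTGA, that the transcription factor TFEB binds. RefSeq promoter windows on GRCm38, from 250 bases before to 50 after each RefSeq start, were matched by symbol for 30 of the 34 genes, and not for Npc1, Asah1, Galns and Hgsnat. Both motifs read the same on either strand, and TCACGTGA contains CACGTG. The E-box was in the windows of 8 of the 30 genes, 26.7%, and of 9.18% of 16522 coding genes with a window. Over all 32851 windows the share was 7.15%. TCACGTGA was found in 2 of the 30 genes, Cln3 and Mcoln1, against 1.45% of coding genes with a window and 0.97% of all windows. The 30 bases around 1 match per gene are shown because the matches belong to genes from every degree of coverage, with the motif in capitals.
Cln3, chr7:126583340-126583369, minus strand: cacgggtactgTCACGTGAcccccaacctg
Mcoln1, chr8:3500462-3500491, plus strand: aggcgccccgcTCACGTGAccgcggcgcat
Gaa, chr11:119267811-119267840, plus strand: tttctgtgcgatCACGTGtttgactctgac
Glb1, chr9:114401018-114401047, plus strand: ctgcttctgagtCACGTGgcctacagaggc
Lamp1, chr8:13159088-13159117, plus strand: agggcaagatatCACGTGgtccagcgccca
Naglu, chr11:101070009-101070038, plus strand: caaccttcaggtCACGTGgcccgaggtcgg
Sgsh, chr11:119355522-119355551, minus strand: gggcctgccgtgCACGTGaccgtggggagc
Arsa, chr15:89477423-89477452, minus strand: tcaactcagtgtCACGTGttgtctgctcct
RefSeq starts can differ from the annotated gene start used for coverage. The Cln3 match shown is from a window at an internal start and lies 2.46 kb inside the gene body, whereas the others lie close to the gene start. Summed over all windows of a gene, Lamp1 had 4 matches, Cln3 and Mcoln1 2 each, and the others 1. Sites shared by overlapping windows were not merged, so these are not numbers of distinct sites. The 8 genes run from Arsa, with no peak in either replicate, to Gaa, with 70.3% in replicate 2. Their median coverage was 10.9% in replicate 1 and 55.1% in replicate 2, against 15.5% and 46.7% for the 22 genes with a window and no match, so the order of the medians differed between the replicates.

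The wider set of lysosomal genes was set beside these in 5 further lists, 64 genes in all. Of these, 23 were marked, and 41 reached 20% in replicate 2, where all coding genes had shares of 7.62% and 23.3%. In the main list 15 of 34 were marked, so a share above that of all coding genes was not particular to it. Of 13 other hydrolases 6 were marked. The lowest in that list were Arsg and the X-linked Gla, both with no peak. Arsg, a sulfatase, was thus unmarked like the 4 sulfatases above.

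Other membrane proteins were marked in 3 of 16 genes, led by the chloride-proton exchanger Clcn7 with 55.0% in replicate 1 and 69.4% in replicate 2. Sppl2a, an intramembrane protease, had 37.0% and 67.9%, and Laptm5 had 36.7% and 58.0%, in replicates 1 and 2. The lowest were Lamp2, at 2.73% and 7.36%, and the tetraspanin Cd63, at 0.43% and 0.35%. Thus Lamp2 stood far below its relative Lamp1 in both replicates. Lamp2 is on the X chromosome, where 0.105% of 948 coding genes were marked against 8.03% of autosomal ones, and none of the 6 X-linked genes in these lists was marked (0 of 6). All 34 genes of the main list are autosomal.

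Cathepsins, the lysosomal proteases, were marked in 5 of 10 genes. Ctss had 42.8% and 71.8%, Ctsd 45.3% and 69.2%, and Ctsz 43.7% and 62.8%, in replicates 1 and 2, while Ctsf and Ctsk were at 0 in both. Ctsk and Acp5, both known from osteoclasts, were thus each without a peak, as was Ctsf. A link with osteoclasts was not tested. Subunits of the proton pump that acidifies lysosomes were marked in 6 of 14 genes. Atp6v0a1 had 46.5% in replicate 1 and 81.6% in replicate 2, Atp6v0b 46.0% and 70.4%, and Atp6v1a 38.6% and 55.1%. The lowest were Atp6ap2, with 0 in replicate 1 and 1.73% in replicate 2, and Atp6ap1, at 0 in both. Like Lamp2, these genes are on the X chromosome, where 0.105% of coding genes were marked.

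Of 11 genes for sorting and regulation 3 were marked. Flcn, a regulator of nutrient signalling at the lysosome, had 43.1% in replicate 1 and 84.7% in replicate 2. Nagpa, which uncovers the mannose 6-phosphate tag on enzymes, had 40.1% and 76.5%, and the kinase Mtor had 22.5% and 61.8%. At the low end, Igf2r, the large mannose 6-phosphate receptor, had 0 in replicate 1 and 4.16% in replicate 2, and the sorting receptor Sort1 was at 0 in both.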

How the data were processed

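H3K36me3 ChIP-seq was done on 2 biological replicates of unstimulated bone marrow-derived macrophages, and the authors deposited 4 narrow peak lists on mm10, 1 per replicate, 1 pooled and 1 replicated. Per peak the authors deposited an enrichment, a ratio (fold) over their background, and a −log10 q. Which aligner and peak caller were used is not given in the sources used here. The lists hold no reads, so depth is unknown and no counting interval was computed. Deeper sequencing gives more and longer peaks.

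For each protein-coding gene of GENCODE M21 (the longest record per symbol), the covered percent of the body was taken per replicate, with position along the body, exons and introns (first introns from the longest coding transcript) and 1 kb past the end. The bodies of 11 of the 34 genes overlap another coding gene. Marking needs 20% in both replicates. Sequences came from GRCm38.p6, in which all 34 genes begin their coding sequence with ATG at the annotated place. The genes and lists were chosen with earlier results of these data known. All 34 were named, and from each further list the 3 most and the 2 least covered by the mean, of which some are not reported here. With 1 group no test was made. Alternatives were marking at 10% or 50%, single or combined lists, an enrichment of at least 3, a −log10 q of at least 5, peak midpoints and other windows. Steps were tested on simulated data. Python 3.11.15, numpy 2.4.6, scipy 1.17.1, matplotlib 3.10.9 and samtools 1.23.1 were used.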

Additional observations from a re-analysis of the deposited data

How the results depend on the processing

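Of 68 alternative values, 48 stayed within 1.5 times the count or shifted by no more than the spread between replicates, and 20 moved beyond it. A change of sign was seen in 0, but only exon minus intron coverage could have changed sign. Counts, percents, positions, distances and enrichments cannot be negative. The number of marked genes, 15, was 0 at 50% coverage, 5 with a −log10 q of at least 5, and 9 among the 23 genes that overlap no other coding gene. That last count drops the 11 overlapping genes altogether. With only the bases shared with another coding gene left out, the number of marked genes stayed at 15. The median coverage in replicate 1, 14.5%, was 2.87% with a −log10 q of at least 5, below the medians of both replicates (14.5% and 48.7%). It was not counted as moved only because the size of the shift was within the wide spread between replicates. Leaving out 1 replicate gave 15 to 30, and the authors' replicated and pooled lists gave 30 each. In replicate 2 alone the counts were 10 glycosidases, 2 sulfatases, 7 membrane proteins and 4 other lumenal proteins, and at 10% in both replicates 1 sulfatase counted. The median position in replicate 1 was 69.2 with an enrichment of at least 3, 73.2 with a −log10 q of at least 5 and 69.3 from peak midpoints, and in replicate 2 it was 65.2 with that −log10 q and 59.4 from midpoints. With a −log10 q of at least 5, the first peak in replicate 1 began at a median of 11.9 kb, the median enrichment there was 3.93, and 1 gene was covered past its end in both replicates. Exon minus intron coverage in replicate 2 was 11.02 percentage points without matching on position, an alternative chosen after seeing the data, as was the count without overlapping genes. The cause of these shifts was not tested. No paired analysis was possible because there is 1 group.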

Other observations

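The nearest annotated coding genes that do not overlap these lysosomal genes were marked in 4 of 34 cases on the 5′ side and in 4 of 34 on the 3′ side, where Eif4a3 was counted for both Gaa and Sgsh, beside 7.62% of all coding genes. In replicate 2, 13 of the 5′ and 10 of the 3′ neighbours reached 20%, beside 23.3%. Of the 15 marked genes, 13 had no marked neighbour on either side. The same count was not made for other coding genes. With 7.62% of all coding genes marked, most genes of any set would lack a marked neighbour. Overlapping genes, such as Ddb2 at Acp2, were not counted. Naglu, covered in replicate 2 alone, lies beside Atp6v0a1, a proton pump subunit gene that was marked.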
